A study of Saccharomyces cerevisiae with 6 samples.

Results

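The amino acid biosynthesis genes of budding yeast (Saccharomyces cerevisiae) were followed in the temperature-sensitive yra1-1 mutant, compared with Yra1 wild-type cells. The 59 genes were chosen by name: every feature whose symbol in the platform annotation equals a listed enzyme, the activator GCN4 or the vitamin B6 gene SNZ1 was taken, and auxotrophic marker genes and sulfur genes were left out. All 59 genes were on the array, with 66 of the 7680 features, so 7 genes had 2 features. The array as a whole carries 5583 named genes. Per the labels, total RNA of yra1-1 cells and total RNA of Yra1 wild-type cells, both at 37 °C, were hybridised together on each of 6 two-colour arrays. Arrays 1, 4 and 6 have yra1-1 in channel 1, and arrays 2, 3 and 5 have it in channel 2. The title of array 1 alone puts “mex” before yra1-1, and what this stands for is not given. The sources used here do not give the strain background, the medium, the time at 37 °C or how many cultures were grown, so the spread that p-values rest on is that of these arrays and can be purely technical.

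Yeast makes all the amino acids of its proteins. The enzymes are encoded in the nucleus, several steps of arginine, lysine and branched-chain synthesis take place in mitochondria, and end products inhibit the first enzyme of many branches. Genes of most branches are activated together by Gcn4, a transcription factor whose translation rises when amino acids run short, a response known as general amino acid control. Yra1 is an RNA-binding export adaptor that hands messenger RNA to the export receptor Mex67.

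Every value is a log2 ratio of the 2 channels minus the median of its array, so 0 is the typical feature and no absolute level is known. The channel in the numerator is not given, and 3 readings of the signs were therefore kept side by side. In the reading turned by the labelled channel, arrays 2, 3 and 5 change sign, whereas the reading as deposited leaves all columns alone. The third reading turns array 1 only. It was chosen because YRA1 was negative on array 1 (−1.39) but positive elsewhere (3.07, 1.64, 1.21, 3.49 and 1.00 on arrays 2 to 6), and because TRP1 and URA3, genes often used as strain markers, switched sign there too. None of these is a member. TRP1 and URA3 were the only features that passed in that reading (limma, adjusted p = 0.00629 each, over 7680 features), which restates the choice. Whichever channel held yra1-1, TRP1 was positive on arrays 2 to 6 (2.76 to 4.16) and URA3 negative (−5.92 to −2.21). Turning by the labelled channel therefore leaves each of TRP1, URA3 and YRA1 with arrays 4 and 6 opposite in sign to the other arrays. Their shifts when so turned were −1.18, 0.28 and −1.23 (limma adjusted p = 0.573, 0.950 and 0.280). No reading is known to be mutant over wild type, so shifts are described by side, positive or negative, and never as a rise or fall in the mutant. Arrays 4 and 6 carry the same sign in all 3 readings, so agreement between readings rests in part on them. The limma estimate with array 1 turned is adjusted for the labelled channel, and arrays 4 and 6 weigh more in it than the other arrays. It is therefore not the plain mean of the turned values and can lie on the other side of 0. Depth does not apply to array ratios, and the number of arrays limits the precision.

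Across the whole group, array 4 stood apart. There 52 of 66 member features (78.8%) lay below the array median, where 50.0% of all features lie, and their median was −0.91. On array 6, 46 of 66 (69.7%) lay below, with a median of −0.35. On the other arrays the members were near the typical feature, with medians of −0.12, −0.04, −0.03 and 0.17 on arrays 1, 2, 3 and 5. The lower position on array 4 ran through 8 of the 10 pathway groups and, on both arrays, was about as large after subtracting the median of each feature's neighbours, at −0.88 on array 4 and −0.37 on array 6. Neighbours are features whose identifiers differ by 1, 2, 20 or 21, taken here to lie close on the slide. The 165 features of cytosolic ribosomal protein genes, which are among the most abundant yeast messages, lay on the same side on these arrays (medians of −0.43 on array 4 and −0.88 on array 6), but had a median of 2.06 on array 5 and a median shift of −0.74 when turned by the labelled channel. Their part in the members' values was not tested.

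**Figure D1:**
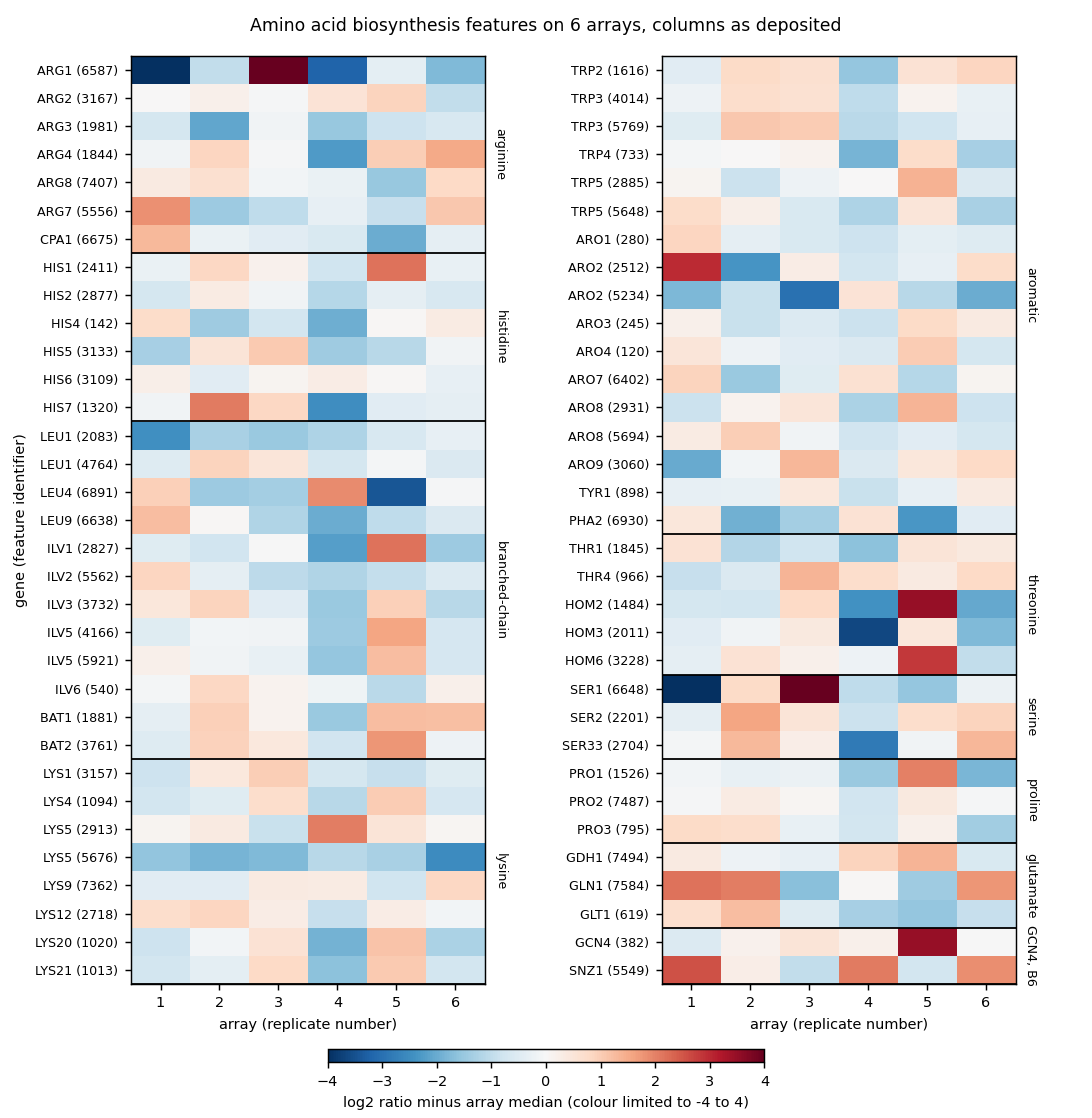
Log2 ratio minus the array median of each of the 66 member features (rows, grouped by pathway, with the feature identifier) on the 6 arrays (columns as deposited). Blue is below and red above the array median, and colours are limited to −4 and 4. The column of array 4 is mostly blue, SER1 and ARG1 are at opposite ends on arrays 1 and 3, and HOM2 and GCN4 are at the red end on array 5.

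No member passed in the reading turned by the labelled channel (limma, 0 of 66 on either side, with a background of 0.013% of all features for positive calls and 0.0% for negative calls). At an unadjusted limma p under 0.05 there were 5 members on the positive side, where 7.51% of all features lay, and 10 on the negative side, where 5.48% lay. In shares of the members these are 7.58% and 15.2%. The estimate was negative for 45 of 66 members (68.2%), against 46.5% of all features, and the median shift was −0.31, against 0.04 over all features. Every array had the same turned sign for 1 member on the positive side (background 2.94%) and for 7 on the negative side (background 4.26%).

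As deposited, 1 member feature passed, on the negative side, where 1.08% of all features passed, and 0 passed on the positive side, where 0.573% did. The feature belongs to LYS5 and is described with the lysine genes. At an unadjusted limma p under 0.05 there were 1 positive member (background 6.13%) and 5 negative members (background 7.33%). The estimate was negative for 50 of 66 members, against 48.5% of all features, and the median shift was −0.15, against 0.02. Same-sided members numbered 0 on the positive side (background 4.01%) and 3 on the negative side (background 3.98%), a share of 4.55%.

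With array 1 turned, no member passed (limma, 0 of 66 on either side, background 0.013% on each side). At an unadjusted limma p under 0.05 there were 0 positive members (background 4.06%) and 4 negative members, a share of 6.06% (background 4.19%). The estimate was negative for 48 of 66 members, against 51.7% of all features, and the median shift was −0.24, against −0.02. These estimates give more weight to arrays 4 and 6, where the members lay low, so they are not separate from the values on those arrays. Same-sided members were 0 on the positive side (background 2.28%) and 3 on the negative side (background 2.11%): ILV2, CPA1 and ARO1. Without array 4 the median shift was nearer 0 in each reading, at −0.19 turned by the labelled channel, −0.06 as deposited and −0.10 with array 1 turned, and it was −0.28 as deposited without array 1 and −0.41 with array 1 turned without array 6. The labels place arrays 5 and 6 on a shared day and arrays 1 and 3 on another. The mean of the members' array medians was −0.26 within the first of these days and −0.04 within the second when turned by the labelled channel, −0.09 and −0.07 as deposited, and −0.09 and 0.04 with array 1 turned, against −0.25, −0.21 and −0.17 over all 6 arrays.

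**Figure D2:**
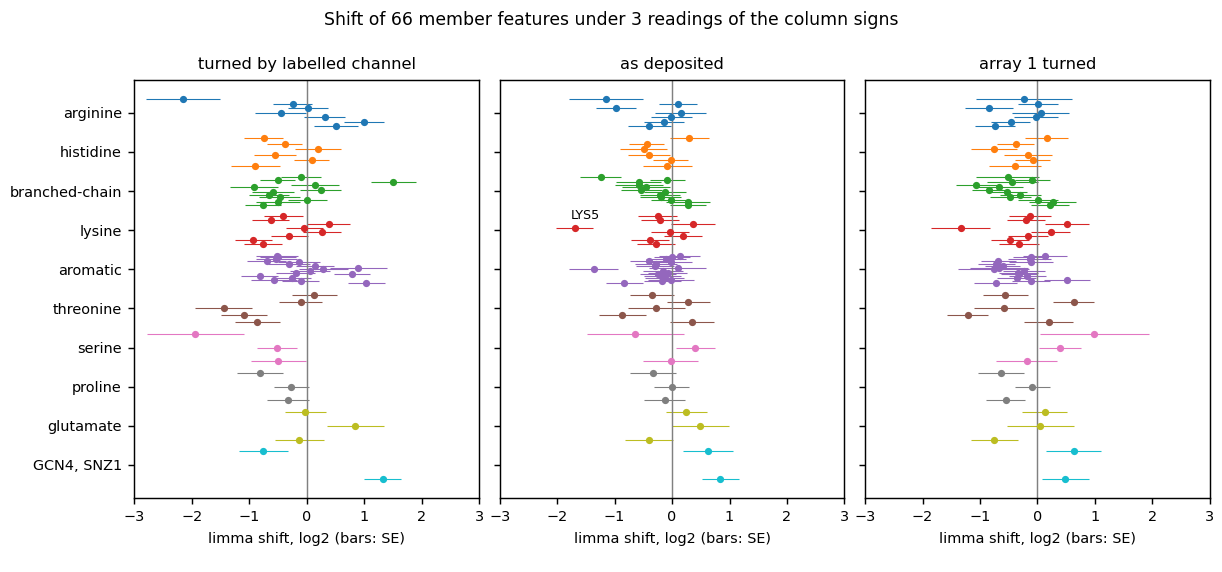
Limma shift on the log2 scale (points) with its SE (bars) for the 66 member features by pathway, under the 3 readings of the column signs. LYS5 is the only feature labelled, since it is the only member that passed, and it did so as deposited. Most points lie left of 0 in each panel.

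The threonine branch had the lowest pathway median on array 4, at −1.63, and all 5 of its features lay above the median of array 5. HOM3, the aspartate kinase that opens the branch, lay at −0.46, −0.15, 0.38, −3.64, 0.44 and −1.77 on arrays 1 to 6. On array 4 it ranked 7 from the lowest of 7680 values, on array 6 it was also low, and on the other arrays it was near the typical feature. With array 1 turned it had the smallest p of all members on the negative side (−1.21 ± 0.35, SE, limma adjusted p = 0.581, and −0.74 without array 4), and turned by the labelled channel it stood at −1.09 ± 0.40 (adjusted p = 0.302). With array 1 turned, only 3 of its 6 values were negative and their plain mean was −0.71, since arrays 4 and 6 weigh more in the estimate. Its slide neighbours had a median of −1.21 on array 4 and −0.21 on array 6.

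HOM2, aspartic semialdehyde dehydrogenase, the next step, lay at −0.71, −0.74, 0.79, −2.41, 3.49 and −2.04. Array 5 was high and arrays 4 and 6 were low, which gave −1.45 ± 0.49 turned by the labelled channel (5 of 6 arrays negative, limma adjusted p = 0.280) and −0.87 without array 5. The neighbours of HOM2 had a median of 0.74 on array 5 and of −1.03 and −0.70 on arrays 4 and 6. Among these neighbours, ARG82 (feature 1486) ran close to HOM2, at −0.69, −0.66, 0.51, −1.34, 3.73 and −2.05 on arrays 1 to 6. The neighbour median does not show this. HOM6, homoserine dehydrogenase, lay at −0.36, 0.57, 0.19, −0.22, 2.84 and −0.97, again highest on array 5, and was 1 of the 7 genes on the negative side of all 6 turned arrays (−0.86 ± 0.39, adjusted p = 0.382). Of the 2 enzymes that convert homoserine to threonine, THR1 shared this pattern in part. THR1, homoserine kinase, lay at 0.57, −1.18, −0.79, −1.63, 0.52 and 0.40. It was thus lowest on array 4 and above the median on array 5, but also above it on arrays 1 and 6. THR4, threonine synthase, lay at −0.93, −0.57, 1.37, 0.70, 0.36 and 0.78. THR4 was thus below the median on arrays 1 and 2 only, and with array 1 turned it had the smallest p of the members on the positive side (0.63 ± 0.36, adjusted p = 0.634). The mean of the 5 features' array medians was −0.56 ± 0.73 (SD, n = 6) when turned by the labelled channel, −0.74 within the day of arrays 5 and 6 and −0.42 within the day of arrays 1 and 3, a shift smaller than its spread between arrays.

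Branched-chain genes were low on array 4 almost throughout, with 11 of 12 features below the array median and a pathway median of −1.34. On array 6 it was −0.56, with 10 of 12 below, and on array 5 it was 0.43. ILV1, threonine deaminase, which draws threonine into isoleucine synthesis, lay at −0.49, −0.76, −0.02, −2.20, 2.17 and −1.45, with array 5 high and arrays 4 and 6 low as for HOM2. ILV5, the acetohydroxyacid reductoisomerase, was highest on array 5 and lowest on array 4 in both of its features, at 1.56 and 1.25 on array 5 and at −1.44 and −1.53 on array 4. ILV3, the dihydroxyacid dehydratase, lay at 0.95 on array 5 and −1.48 on array 4. ILV2, the catalytic subunit of acetolactate synthase, followed another course, at 0.87, −0.35, −1.04, −1.20, −0.94 and −0.55, so that array 1 alone was above the median. That put ILV2 on the negative side of all 6 arrays with array 1 turned (−0.84 ± 0.31, limma adjusted p = 0.581). Its regulatory partner ILV6 lay between −1.06 and 0.83.

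In the leucine arm, LEU4, an α-isopropylmalate synthase, lay at 0.94, −1.45, −1.37, 1.89, −3.43 and −0.04. It was high on arrays 1 and 4 and lowest on array 5, at the opposite ends from HOM2 on arrays 4 and 5, and stood at 1.51 ± 0.39 turned by the labelled channel (5 of 6 arrays positive, limma adjusted p = 0.233). Its slide neighbours ran in the same direction on arrays 1 to 5, at 0.86, −1.19, −1.18, 1.04 and −1.81. LEU9, its paralog with the same activity, lay at 1.25, 0.06, −1.19, −1.99, −1.003 and −0.56, on the other side of LEU4 on arrays 2 and 4, and stood at −1.06 ± 0.36 with array 1 turned (adjusted p = 0.581, and −0.71 without array 4). LEU1, the isopropylmalate isomerase, had a feature (2083) below the median on every array, at −2.45, −1.31, −1.49, −1.25, −0.63 and −0.33, which gave −1.24 ± 0.35 as deposited (adjusted p = 0.116). Its other feature (4764) lay at −0.51, 0.89, 0.48, −0.69, −0.09 and −0.56, on the same side on 4 of 6 arrays. The last step is a transamination. BAT2, the cytosolic aminotransferase, lay at −0.51, 0.92, 0.43, −0.76, 1.77 and −0.20, negative on all 6 arrays once turned (−0.76 ± 0.32, adjusted p = 0.345), and BAT1, the mitochondrial one, at −0.35, 0.95, 0.14, −1.47, 1.24 and 1.19, which differed in side from BAT2 on array 6 only.

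Lysine genes held a set of 3 features with nearly the same profile. LYS20 and LYS21, the homocitrate synthases of the first step, lay at −0.81, −0.10, 0.59, −1.88, 1.14 and −1.25 for LYS20 and at −0.74, −0.38, 0.79, −1.65, 1.06 and −0.73 for LYS21. LYS4, homoaconitase, which acts next in the chain, lay at −0.74, −0.48, 0.70, −1.10, 1.03 and −0.68. All 3 were above the array median on arrays 3 and 5 and below it on the other 4, and turned by the labelled channel each was negative on 5 of 6 arrays. LYS20 had the smallest limma p of them (−0.93 ± 0.33, adjusted p = 0.286). The neighbours of LYS20 showed the same sides on arrays 1 to 5, at −0.72, −0.19, 0.73, −0.19 and 1.05, but lay at 0.45 on array 6, and those of LYS4 lay at 0.52 on array 4. LYS12, the homoisocitrate dehydrogenase (−0.94 to 0.85), and the saccharopine enzymes LYS9 (−0.81 to 0.82) and LYS1 (−0.94 to 0.98) stayed within a log2 unit of the median on every array.

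LYS5, the phosphopantetheinyl transferase that activates the aminoadipate reductase, held the only member feature that passed. Feature 5676 lay at −1.57, −1.87, −1.77, −1.11, −1.31 and −2.53 on arrays 1 to 6, below the median on all of them, with −1.69 ± 0.32 as deposited (SE, limma adjusted p = 0.0282). The other LYS5 feature, 2913, lay at 0.10, 0.35, −0.90, 2.04, 0.51 and 0.08, above the median on 5 arrays, and stood at 0.36 ± 0.37 as deposited (adjusted p = 0.795) and 0.51 ± 0.38 with array 1 turned (adjusted p = 0.726), where it was 0.023 without array 4 and 1.002 without array 6. The 2 features shared a side on 1 of 6 arrays. Neighbours of feature 5676 on the slide had medians of −1.40, −1.73, −1.14, −0.78, −1.17 and −2.03, close to its own values, and after they were subtracted its shift was −0.32 (adjusted p = 0.601). The call was also lost without array 1, 2, 3, 4 or 6 (adjusted p = 0.0802, 0.0664, 0.113, 0.0833 and 0.142).

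**Figure D3:**
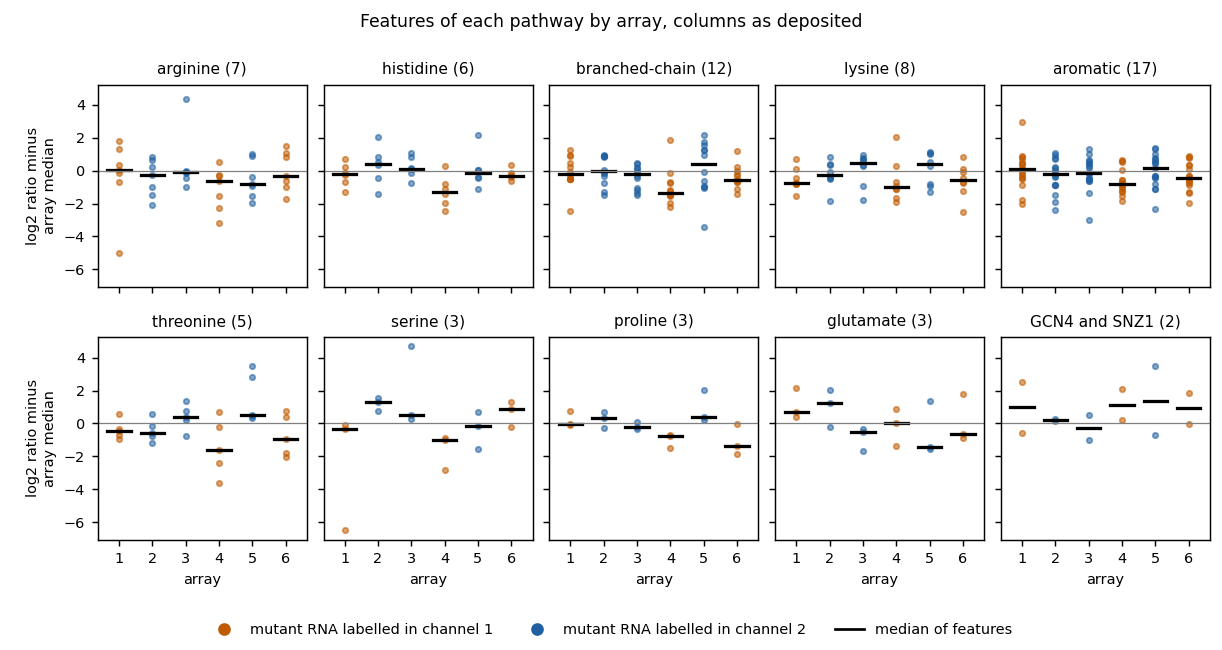
Log2 ratio minus the array median of every feature (points) and the median (bar) of each pathway on the 6 arrays, columns as deposited. Orange points are arrays that have yra1-1 in channel 1, and blue points are arrays that have it in channel 2. Array 4 has the lowest median in the histidine, branched-chain, lysine, aromatic, threonine and serine panels.

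Histidine genes had a median of −1.27 on array 4, with 5 of 6 features below the array median, and medians between −0.31 and 0.43 on the other arrays. HIS7, the imidazole glycerol phosphate synthase, spanned the widest range, from −2.48 on array 4 to 2.08 on array 2. HIS4, which carries several steps in a single protein, was at −1.95 on array 4 and −1.41 on array 2. HIS1, the first enzyme of the pathway, lay at −0.27, 0.82, 0.17, −0.80, 2.17 and −0.29, high on array 5 and negative on all 6 turned arrays (−0.75 ± 0.35, limma adjusted p = 0.387). HIS5 lay between −1.41 and 1.06, HIS2 between −1.13 and 0.34, and HIS6 stayed between −0.46 and 0.30, the narrowest range of all 66 members.

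The aromatic pathway, with 17 features of 13 genes, had a median of −0.81 on array 4, with medians of −0.47 to 0.15 elsewhere. In the shared trunk, ARO3 and ARO4, DAHP synthases inhibited by phenylalanine and by tyrosine, ranged from −0.89 to 0.76 and from −0.69 to 1.00. ARO1, the pentafunctional enzyme that follows, was positive on array 1 alone (0.85) and ranged from −0.81 to −0.36 elsewhere, and so was negative on all 6 arrays with array 1 turned (−0.61 ± 0.30, limma adjusted p = 0.602). ARO2, chorismate synthase, had features that went apart. Feature 5234 lay at −1.80, −0.89, −2.97, 0.54, −1.10 and −1.99 (−1.37 ± 0.43 as deposited, adjusted p = 0.146), whereas feature 2512 lay at 2.98, −2.37, 0.31, −0.73, −0.34 and 0.75, and they shared a side on 2 of 6 arrays.

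In the phenylalanine and tyrosine branch, 2 enzymes lay on the positive side once turned. PHA2, prephenate dehydratase, lay at 0.47, −1.92, −1.35, 0.59, −2.34 and −0.47, high on arrays 1 and 4 and low on arrays 2, 3 and 5, which gave 1.03 ± 0.32 (5 of 6 arrays positive, limma adjusted p = 0.266). ARO7, chorismate mutase, lay at 0.89, −1.48, −0.50, 0.62, −1.13 and 0.10 and was the only member positive on all 6 turned arrays (0.79 ± 0.31, adjusted p = 0.333). The neighbours of ARO7 lay at 1.08, −1.57, −1.02, 1.00, −1.47 and −0.30, and those of PHA2 at 0.54, −0.99, −0.97, 0.53, −0.39 and −0.06, so the sides were shared with nearby features on all arrays but array 6 for ARO7. TYR1, prephenate dehydrogenase, ranged only from −0.88 to 0.43. The aminotransferases ARO8 and ARO9 end the branch. ARO8 feature 2931 was negative on all 6 turned arrays (−0.82 ± 0.32, adjusted p = 0.315), its other feature 5694 on 3 of them, and ARO9 reached −2.03 on array 1 and 1.33 on array 3.

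Tryptophan genes were low on array 4 almost throughout. TRP2, which makes anthranilate together with TRP3, lay at −1.56 there, the TRP3 features at −1.01 and −1.09, and TRP4, the phosphoribosyltransferase, at −1.87. TRP5, tryptophan synthase, lay at 0.03 in 1 feature and −1.23 in the other. Turned by the labelled channel, TRP3 feature 4014 (−0.50 ± 0.31) and TRP4 (−0.70 ± 0.34) were negative on all 6 arrays, with limma adjusted p = 0.556 and 0.415.

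Arginine genes did not move as a block, and their pathway median was −0.60 on array 4 and −0.82 on array 5, with −0.35 to 0.02 elsewhere. ARG1, argininosuccinate synthetase, lay at −4.99, −0.97, 4.38, −3.20, −0.38 and −1.75. It ranked 20 from the lowest of 7625 values on array 1, 13 from the highest of 7680 on array 3 and 18 from the lowest on array 4. It stood at −2.16 ± 0.64 turned by the labelled channel (4 of 6 arrays negative, limma adjusted p = 0.254), the largest negative shift among the members, at −1.32 in the same reading without array 3, and at −0.24 ± 0.83 with array 1 turned. The plain mean of the ARG1 values with array 1 turned was 0.51, on the other side of 0. ARG4, which acts after ARG1, lay at −0.15, 0.86, −0.04, −2.26, 0.99 and 1.51, near the typical feature on arrays 1 and 3 but low together with ARG1 on array 4, where it ranked 128 from the lowest of 7680. ARG3, ornithine carbamoyltransferase, lay at −0.69, −2.06, −0.14, −1.53, −0.82 and −0.65, below the median on all 6 arrays (−0.98 ± 0.35 as deposited, adjusted p = 0.204). CPA1, the small subunit of carbamoyl phosphate synthetase, was positive on array 1 alone (1.29) and ranged from −1.97 to −0.27 elsewhere. Among the mitochondrial ornithine enzymes, ARG7 lay at 1.82 on array 1 and −1.46 on array 2 (0.99 ± 0.35 turned, adjusted p = 0.291), ARG8 ranged from −1.52 to 0.81 and ARG2 from −0.99 to 0.89.

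SER1, the phosphoserine aminotransferase, had the widest range of all members. Its values were −6.50, 0.77, 4.68, −1.02, −1.56 and −0.22 on arrays 1 to 6. These extremes ranked 12 from the lowest and 11 from the highest feature of their arrays. By their titles, arrays 1 and 3 share the day and the slide number 5, with the suffix a for array 1 and b for array 3. What the suffixes stand for is not given. The shift was −1.94 ± 0.84 turned by the labelled channel (limma adjusted p = 0.363) and 0.99 ± 0.95 with array 1 turned. For thresholds chosen after the values were seen, 25 features lay below −3 on array 1 and above 3 on array 3, SER1, ARG1 and the marker TRP1 among them. The neighbours of SER1 on the slide had medians of −5.02 on array 1 and 1.94 on array 3, and those of ARG1 of −3.68 and 3.25. The other serine genes were moderate on both arrays: SER2, the phosphatase, lay at −0.35 and 0.51, and SER33, a phosphoglycerate dehydrogenase, at −0.06 and 0.26. Over all arrays SER2 stood at 0.41 ± 0.35 as deposited (limma adjusted p = 0.720), with 0.24 without array 2 and 0.16 without array 6. SER33 was lowest on array 4, at −2.82, and near 1.3 on arrays 2 and 6, at 1.29 and 1.33.

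**Figure D4:**
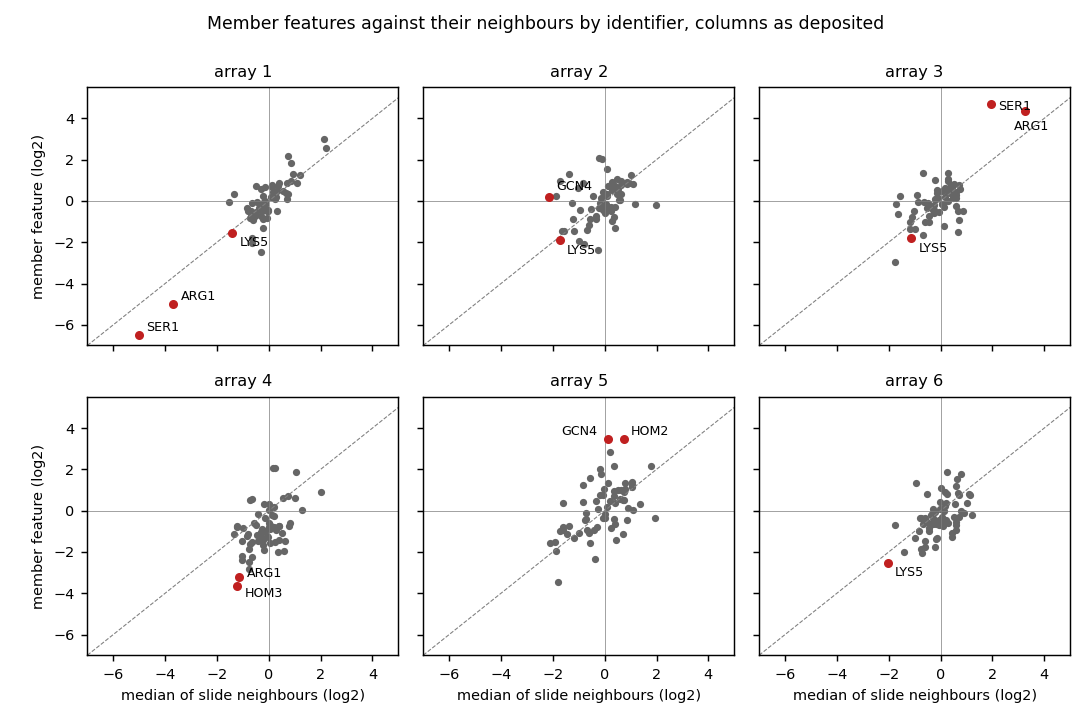
Each of the 66 member features (vertical axis, log2 ratio minus the array median) against the median of its neighbours by identifier, which lie 1, 2, 20 and 21 identifiers away on either side (horizontal axis, same unit), columns as deposited. The dashed line marks equal values. On array 1 SER1 and ARG1 are low together with their neighbours. On array 3 both are high, with SER1 at 2.75 above its neighbours, and on array 5 GCN4 and HOM2 lie 3.35 and 2.75 above theirs, whereas LYS5 feature 5676 stays within 0.64 of its neighbours on each array.

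Values of the members were positively correlated with those of their slide neighbours on every array, most weakly on array 2. On array 1 SER1 and ARG1 lay far below the other members, as did their neighbours, and the correlation without them was not computed. Across the 66 features, the correlation with the neighbour median was 0.88 on array 1, 0.35 on array 2, 0.67 on array 3 and 0.51, 0.53 and 0.52 on arrays 4 to 6. Over all 7680 features it was 0.57 to 0.65. These correlations describe features that share an array and have nearby identifiers. Nearby identifiers are taken here as a shared place on the slide, and whether place is what the features share was not tested. For a threshold chosen after the values were seen, 7 member values lay more than 2.5 from the median of their neighbours. On array 5 these were GCN4 (3.35), HOM2 (2.75) and HOM6 (2.63), on array 3 SER1 (2.75), on array 2 ARO8 feature 5694 (2.73) and SER33 (2.66), and on array 4 HIS4 (−2.55). For LYS5 feature 5676 the difference ran from −0.64 to −0.14.

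Proline genes were all on the negative side when turned by the labelled channel. PRO1, γ-glutamyl kinase, the first step, lay at −0.11, −0.29, −0.24, −1.49, 2.02 and −1.84, high on array 5 and low on arrays 4 and 6 as for HOM2 and ILV1 (−0.82 ± 0.40, limma adjusted p = 0.416). PRO2, the reductase that follows, was negative on all 6 turned arrays but by little, at −0.27 ± 0.30, and PRO3, pyrroline carboxylate reductase, ranged from −1.40 to 0.77. The nitrogen-assimilating genes gave no common side. GLN1, glutamine synthetase, lay at 2.17, 2.04, −1.66, 0.05, −1.44 and 1.77, with 3 arrays high, array 4 at the median and arrays 3 and 5 low. GLT1, glutamate synthase, lay between −1.55 and 1.24, and GDH1, the NADP-dependent glutamate dehydrogenase, between −0.61 and 1.36.

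GCN4, the activator of these genes, was high on a single array. Its values were −0.55, 0.17, 0.50, 0.20, 3.48 and −0.02 on arrays 1 to 6, so array 5 was high and the rest were near the typical feature. The shift was −0.76 ± 0.43 turned by the labelled channel (limma adjusted p = 0.515) and 0.63 in both other readings (adjusted p = 0.624 as deposited and 0.727 with array 1 turned), and without array 5 it was −0.23 turned by the labelled channel, 0.11 as deposited and 0.25 with array 1 turned. On array 5 the median of the member features was 0.17, and on array 4, where 52 of them lay below the array median, GCN4 was at 0.20. Gcn4 is controlled mainly at translation. SNZ1, a vitamin B6 synthesis gene known as a marker of stationary phase, lay at 2.55, 0.26, −0.997, 2.07, −0.72 and 1.87. Arrays 1, 4 and 6, those with yra1-1 in channel 1, were high, and SNZ1 had the smallest p of all members when turned by the label (1.32 ± 0.32, 5 of 6 arrays positive, adjusted p = 0.212). As deposited it had the smallest p of the members on the positive side (0.84 ± 0.32, adjusted p = 0.249). Its neighbours lay at 2.22 on array 1, 0.25 on array 4 and 0.23 on array 6.

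Enzymes with the same activity were compared within each array. The 5 paralog pairs gave 15 differences over the 3 readings, tested by an exact two-sided sign-flip permutation test over 6 arrays, whose smallest possible p is 0.0313. After Benjamini-Hochberg adjustment a single difference at that smallest p would have 0.469, and 10 of the 15 would have to reach it to pass 0.05, so the test says little about these pairs. The smallest adjusted p was 0.781. LEU4 minus LEU9 had the largest difference, 1.37 ± 1.58 (SD, n = 6) when turned by the labelled channel, positive on 5 of 6 arrays (exact p = 0.0938). LYS20 minus LYS21 was −0.17 ± 0.24 in that reading (exact p = 0.156), and on single arrays their difference stayed between −0.52 and 0.27. Homocitrate synthase messages are alike in sequence, and whether the spots tell LYS20 from LYS21 cannot be seen from these values. In the same reading BAT1 minus BAT2 was 0.27 ± 0.69, ARO3 minus ARO4 was 0.25 ± 0.53 and ARO8 minus ARO9 was 0.04 ± 1.23. All 5 pairs, LEU4 with LEU9 and LYS20 with LYS21 included, differed by less than the spread between arrays in that reading.

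For the 7 genes with 2 features, agreement between the features differed by gene. ILV5 and TRP3 had both features on the same side on 5 of 6 arrays, with median absolute differences of 0.13 and 0.32. LEU1 and TRP5 agreed on 4 arrays, ARO8 on 3, ARO2 on 2 and LYS5 on 1, with median absolute differences of 1.25, 0.82, 0.72, 2.11 and 2.02. In all, 24 of 42 feature comparisons (57.1%) shared a side, against 61.3% over the 1100 genes of the array with 2 features.

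Further genes of amino acid metabolism outside the members were followed as a listed set of 64, of which 62 had features, 80 in all. Their median on array 4 was −0.24, against −0.91 for the members. That list mixes enzymes and carriers with regulators, permeases and catabolic genes, so the contrast is not one between biosynthetic enzymes. On array 4 its enzymes and carriers ran from −3.48 (SER3) to 1.57 (AGC1), with GLY1 at −2.19, ASN2 at −1.92 and CHA1 at 0.73. Their own median on that array was not computed. Turned by the labelled channel, 0 of 80 passed by limma (3 positive and 10 negative at an unadjusted p under 0.05, with backgrounds of 7.51% and 5.48%), and 47 were on the negative side (58.8%, background 46.5%). Among them the other enzymes and carriers had 19 of 25 features on the negative side with a median of −0.32. In the other readings this count was 11 of 25 as deposited and 12 of 25 with array 1 turned. Regulators had 13 of 29 on that side (median 0.11), permeases 9 of 15 (median −0.19) and catabolic genes 6 of 11 (median −0.06). As deposited 2 of the 80 (2.5%) passed, both on the positive side (background 0.573%): GCN1, which relays starvation to the kinase Gcn2, at 1.67 ± 0.34 in feature 1730 (limma adjusted p = 0.0323), and the permease gene AGP3 at 1.52 ± 0.31 (adjusted p = 0.0334). These features lay above the array median on all 6 arrays, GCN1 between 0.47 and 2.97 and AGP3 between 0.44 and 2.31. The other GCN1 feature, 4370, did so on 4 of 6 arrays and stood at 0.49 ± 0.39 (adjusted p = 0.685). Both calls were lost with slide neighbours subtracted, where limma gave adjusted p = 0.120 for GCN1 and 0.230 for AGP3, without repeated values (0.0580 for each), with arrays of a day averaged (0.105 and 0.104) and without centring (0.705 for each). They were also lost without array 1, 2, 3, 4 or 6 (adjusted p = 0.0741 to 0.158 for GCN1 and 0.0889 to 0.142 for AGP3) and kept without array 5 (0.0497 and 0.0240). With array 1 turned 0 of 80 passed by limma (5 positive and 3 negative at an unadjusted p under 0.05, with backgrounds of 4.06% and 4.19%).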

How the data were processed

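The authors deposited a log10 ratio of the 2 channels for each feature on each array. That unit was inferred from the values. The sources used here do not name the image analysis, background treatment, normalization or numerator channel. Of 7684 rows, 1 had no numeric identifier and was dropped, and 3 repeated identifiers were averaged. Values were converted to log2, and the array median, between −3.91 and 4.11 before this step, was subtracted. Symbols came from the platform annotation, and all 59 members matched the current gene table.

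Features needed values on 4 or more arrays, with 2 or more per channel assignment. They were fitted with limma 3.58.1 (R 4.3.3, lmFit and eBayes), with the column sign and the labelled channel as terms. Tests are two-sided with Benjamini-Hochberg adjustment over all 7680 features and a threshold of 0.05. The fit was also run on simulated noise drawn independently for each feature. Slide neighbours are correlated in the real data, so that run does not show how the fit behaves here. Members, lists, readings and the rule for named genes (the 3 smallest p-values on each side of each reading, GCN4, SNZ1 and the paralogs) were chosen with earlier results of these data known, and further members are named to account for each pathway. Spatial correction, left-out values, centring, scale, averaging per gene, day, array weights and left-out arrays were tried as alternatives.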

Additional observations from a re-analysis of the deposited data

Results flagged for a closer look

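In the reading turned by the labelled channel, 77 groups of 6 arrays were examined for a single array far from the others, and 5 stood out, where chance flags about 1 in 20 groups. GCN4 lay at −3.48 on array 5, with the other arrays between −0.55 and 0.20. HOM6, homoserine dehydrogenase, lay at −2.84 on array 5, with the others between −0.97 and −0.19. HIS1, the first enzyme of histidine synthesis, lay at −2.17 on array 5, with the others between −0.82 and −0.17. LYS1, saccharopine dehydrogenase, lay at 0.94 on array 5, with the others between −0.98 and −0.43. LYS4, homoaconitase, lay at 0.48 on array 2, with the others between −1.10 and −0.68. Array 5 was the distant array in 4 of the 5. It also had the widest spread over all features, with an SD of 1.43 against 0.99 to 1.36 on the other arrays.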

How the results depend on the processing

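Turned by the labelled channel, 1 feature of the whole array passed in limma (998 at an unadjusted p under 0.05). With slide neighbours subtracted 0 passed (683 unadjusted), without repeated values 0 (919), averaged per gene 0 (815), on complete features 0 (990), scaled 2, with array weights 7 and without centring 4887. As deposited 127 passed, against 3 with neighbours subtracted, 30 without repeated values, 2 without centring, 21 per gene, 0 with arrays of a day averaged (888 unadjusted), 257 with the day as a random block and 580 with array weights. With array 1 turned 2 passed, against 1 without whole-number ratios, 5 without centring, 5 with the day block and 6 with array weights. The within-day correlation that the block fits used was negative. It was −0.27 both turned by the labelled channel and as deposited, and −0.51 with array 1 turned. Larger counts with the day block are therefore not to be read as the outcome of a stricter test. Leaving out single arrays gave 0 to 4, 0 to 214 and 0 to 45 in the 3 readings. Arrays without which 0 features passed were 4, 5 and 6 turned by the labelled channel (637, 1094 and 943 unadjusted), 4 and 6 as deposited (817 and 783), and 4, 5 and 6 with array 1 turned (353, 732 and 270).

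Without centring 52 of 66 members passed turned by the labelled channel, as did 4887 of all 7680 features. The member medians were −2.42, −0.98 and −1.25, beside −2.07, −0.82 and −1.04 for all features. The single member called as deposited, LYS5, became 0 with neighbours subtracted (8 members unadjusted), without repeated values (6), without centring (5), per gene (4) and with days averaged (6), and 0 to 1 with an array left out. Before these changes the unadjusted counts as deposited were 1 positive and 5 negative members (backgrounds 6.13% and 7.33%). With array weights 3 of 66 members passed (LEU1, ARO2 and LYS5), as did 580 of all 7680 features. The median without single arrays ran from −0.42 to −0.19, from −0.28 to −0.06 and from −0.41 to −0.10.

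Paralog differences changed sign with neighbours subtracted for LEU4 minus LEU9 (0.43), BAT1 minus BAT2 (−0.030) and ARO3 minus ARO4 (0.18) as deposited, BAT1 minus BAT2 with array 1 turned (0.072) and LYS20 minus LYS21 turned by the labelled channel (0.10). With an array left out, LEU4 minus LEU9 ran from −0.78 to 0.48 as deposited and −0.66 to 0.61 with array 1 turned, BAT1 minus BAT2 from −0.27 to 0.15 and −0.33 to 0.088, ARO3 minus ARO4 from −0.32 to 0.028 and −0.20 to 0.14, and ARO8 minus ARO9 from −0.31 to 0.36 turned by the labelled channel and −0.50 to 0.17 as deposited. Pathway values moved by more than 1 SD between arrays for arginine as deposited (0.020 with neighbours subtracted, −0.041 within the day of arrays 1 and 3) and with array 1 turned (−0.030 with neighbours subtracted), for serine turned by the labelled channel within the day of arrays 5 and 6 (0.52) and for GCN4 with SNZ1 with array 1 turned within the day of arrays 1 and 3 (−0.62). Signs of pathway values changed in 10 of 180 values with an array left out, 4 of 30 with neighbours subtracted, 2 of 30 within the day of arrays 5 and 6 and 8 of 30 within the day of arrays 1 and 3. Within the day of arrays 1 and 3 the value was 0.11 for aromatic and 0.093 for proline genes turned by the labelled channel, 0.084 for glutamate as deposited, and 0.16, 0.0011, 0.61 and 0.42 for histidine, branched-chain, lysine and threonine with array 1 turned. Within the day of arrays 5 and 6 it was −0.23 for GCN4 with SNZ1 turned by the labelled channel. The cause of these changes was not tested.

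On arrays 1 and 2, 32 and 30 of 66 member values were ratios of 2 whole numbers with a product below 10000000 (relative tolerance 1.2e-09), against 1 to 9 on the others. Intensities and background were not used here, so dim spots could not be set apart. Each ratio already pairs yra1-1 with wild-type RNA on the same array. No further pairing between groups was possible, because there is a single group of arrays. Arrays 1 and 3 share a day and have yra1-1 in opposite channels, as do arrays 5 and 6. Arrays of a shared day enter through the within-day values, the day block and the day averages.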

Other observations

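Some small pathways lay wholly on one side of an array's median. The 3 serine features were all below it on arrays 1 and 4 and all above it on arrays 2 and 3. The 3 proline features were all below it on arrays 4 and 6 and all above it on array 5, where the 5 threonine features also lay above it. The 3 glutamate and glutamine features were all above it on array 1 and all below it on array 3. These groups were picked after their values were seen, and no test was made.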
